A study of Rattus norvegicus with 6 samples.

Results

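The interstitial fibrillar and type VI collagens are the chains that build the collagen scaffold of connective tissue around cells, and 10 of their genes were examined here. They were chosen by name among the 21857 gene symbols of the count files: the fibrillar chains Col1a1, Col3a1, Col5a1, Col5a2 and Col5a3, the collagen VI chains Col6a1, Col6a2 and Col6a3, and the fibril-associated chains Col12a1 and Col14a1. All 10 were found in each library and all 10 passed the filter on low counts, which 12941 genes passed. The cells were neonatal rat cardiac fibroblasts (NRCFs), taken in primary culture from the hearts of Sprague-Dawley pups at most 3 days old, although the strain label reads "Noway". There were 3 libraries of cells that received the empty pcDNA 3.1 plasmid (Vector, wild type by the genotype label) and 3 of cells transfected with the plasmid that carries rat FTO, an enzyme that takes the methyl mark N6-methyladenosine (m6A) off RNA. The oxygen state of the cells is not given for these libraries, nor is it given whether the replicates were separate cultures, so p-values measure only the spread between these libraries.

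Cardiac fibroblasts secrete most of the collagen of the heart. Collagens I and III form the main fibrils of the cardiac interstitium, and collagen V is built into the fibrils of collagen I and limits their width. Collagen VI forms beaded microfilaments near the cell surface, and its α3 chain is needed together with α1 and α2 to make the secreted molecule. Collagens XII and XIV lie on the surface of fibrils and belong to the FACIT group, the fibril-associated collagens with interrupted triple helices. In scar formation fibroblasts turn into contractile myofibroblasts, and the level of collagen transcripts is a usual readout of that state.

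The libraries held 13178952 to 17857999 counted reads, so that each of the 10 genes had at least 223 counts in every library. The targeted gene Fto was at 88.3 ± 1.20 CPM (each count divided by the size of its library and multiplied to a fixed common total, with library sizes scaled by TMM, the trimmed mean of M-values) in Vector and at 92.3 ± 1.32 CPM in the other group (SD, 3 libraries each). Its log2 fold change of 0.06 had an adjusted p of 0.239. A rise of Fto was therefore not detected by this test, and the second group is called the libraries labelled FTO throughout. Even so, Fto was at 90.8 to 93.2 CPM in those libraries, above the 87.4 to 89.6 CPM of the Vector libraries. The paper reports checks of FTO after transfection by qRT-PCR and at the protein level, but does not say whether they used these cultures. Among all genes tested, 65.9% differed between the groups at an adjusted p under 0.05, 32.8% being lower and 33.2% higher in the libraries labelled FTO.

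All 10 collagen genes were lower in the libraries labelled FTO, from 1.37-fold for Col6a2 to 14.6-fold for Col6a3. Each passed the test at an adjusted p under 0.05, against 32.8% of all genes tested that were lower. In 10 of 10 genes the highest library labelled FTO lay below the lowest Vector library, which held for 34.8% of all genes. The threshold of the study, a log2 fold change of at most -1 with p under 0.05, was met by 8 of 10, all but Col6a1 and Col6a2, against 9.27% of all genes. The median log2 fold change of the 10 genes was -1.59, and that of all genes was 0.00. Among the 3112 genes with a mean of at least 1000 counts, 6.36% were at least 2-fold lower. These tests used the quasi-likelihood method of edgeR with Benjamini-Hochberg adjustment over all genes.

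**Figure D1:**
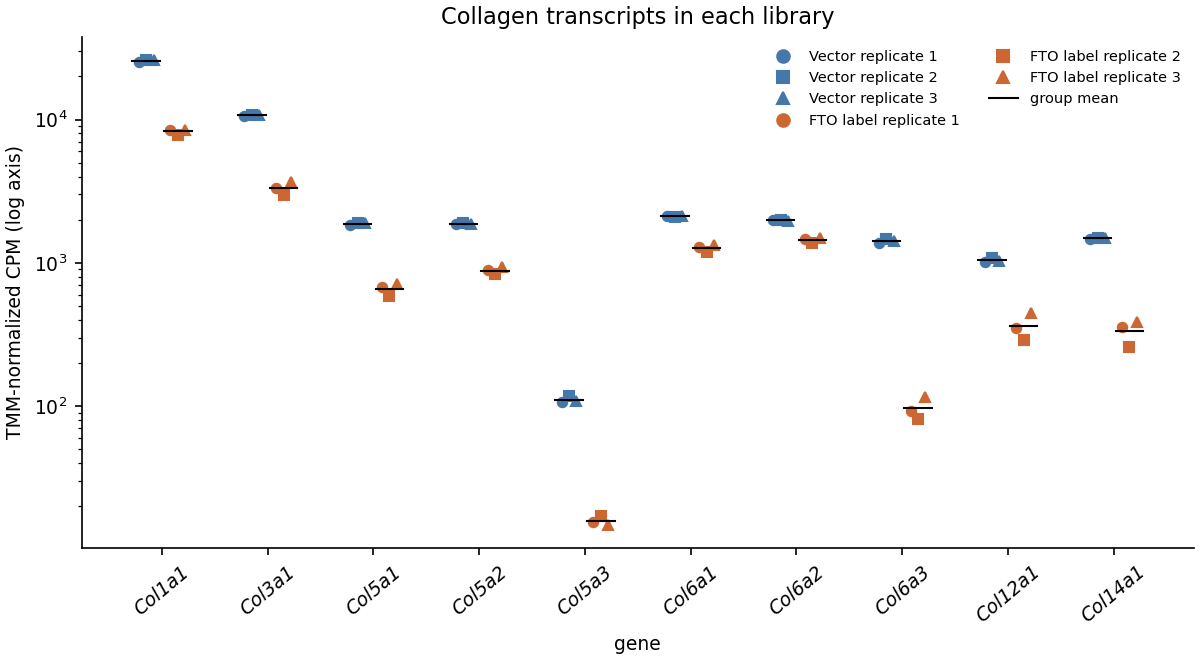
Level of each of the 10 collagen genes in each library, as TMM-normalized CPM on a log axis, with Vector replicates in blue, replicates labelled FTO in orange and the group mean as a line. The Vector points lie close together above the orange points for every gene, and the gap is widest for Col6a3, at 1385.5 to 1459.5 CPM against 81.6 to 117.

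Col1a1 encodes the α1 chain of collagen I, the main collagen of fibrils. It was at 25425, 26056 and 25945 CPM in Vector replicates 1, 2 and 3, and at 8519, 7834 and 8450 CPM in replicates 1, 2 and 3 labelled FTO. The means were 25809 ± 337 and 8268 ± 377 CPM (SD, n = 3 each), and the log2 fold change was -1.64 (SE 0.0417, edgeR adjusted p = 2.3e-14) or 2.93-fold to 3.32-fold lower by its 95% interval. By counts, which are not corrected for transcript length, it ranked 1 among all genes in each Vector library and 3 in each library labelled FTO.

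Col3a1 encodes the only chain of collagen III, which is a homotrimer found in thinner fibrils beside collagen I. Its level was 10617, 10796 and 10685 CPM in the Vector libraries and 3347, 2969.9 and 3696 CPM in those labelled FTO. From 10699 ± 90.0 to 3338 ± 363 CPM, the log2 fold change was -1.68 (SE 0.0608, adjusted p = 1.7e-12), with a 95% interval of 2.93-fold to 3.51-fold lower. That interval overlapped the interval of Col1a1. The libraries labelled FTO were more spread than the Vector ones.

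The ratio of Col1a1 to Col3a1 counts asks whether the 2 main fibrillar transcripts changed together. It was 2.39, 2.41 and 2.43 in Vector and 2.55, 2.64 and 2.29 in the libraries labelled FTO. The groups overlapped, and the change of 0.04 on the log2 scale (SE 0.0623) was within the spread between libraries (two-sided exact permutation p = 0.5, 0.55 after adjustment over the 11 ratios computed). Ratios are of counts within a library. Their change is free of gene length, but their level is not. Overlap was not counted for ratios of other gene pairs, so a lack of overlap is not shown to be particular to collagen ratios.

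Collagen V is made of 3 chains here, and the 3 genes changed by different amounts. Col5a1 encodes the α1 chain found in nearly every collagen V molecule. It was at 1836, 1904 and 1887 CPM in Vector and at 679, 591 and 709 CPM in the libraries labelled FTO, or 1876 ± 35.3 against 660 ± 61.5. The log2 fold change was -1.51 (SE 0.0560, adjusted p = 2.4e-12).

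Col5a2 encodes the α2 chain, which joins α1 in the common heterotrimer. Its values were 1856, 1892 and 1870.3 CPM in Vector and 886, 832 and 932 CPM in the libraries labelled FTO. The drop from 1873 ± 17.9 to 883 ± 50.1 CPM gave a log2 fold change of -1.08 (SE 0.0439, adjusted p = 6.8e-12), smaller than that of Col5a1 with no overlap of the 95% intervals. Its interval reached from 1.99-fold to 2.26-fold lower, so Col5a2 sits at the 2-fold threshold.

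Col5a3 encodes the α3 chain, a less widespread chain of collagen V. It was at 106, 118 and 108 CPM in Vector against 15.6, 17.1 and 14.9 CPM in replicates 1, 2 and 3 labelled FTO. These values rest on 1451 to 1754 counts in Vector and on 223 to 267 in the other group. With means of 110.7 ± 6.17 and 15.9 ± 1.14 CPM, the log2 fold change was -2.80 (SE 0.0699, adjusted p = 1.8e-14). Only 1.51% of the genes tested had a lower fold change.

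The ratios within collagen V moved in opposite directions. Col5a2 over Col5a1 was 1.01, 0.993 and 0.991 in Vector and 1.31, 1.41 and 1.31 in the libraries labelled FTO, a log2 change of 0.43 (SE 0.0359). Col5a3 over Col5a1 was 0.0578, 0.0618 and 0.0573 against 0.0230, 0.0290 and 0.0210, which is 2.44-fold lower. Neither pair of groups overlapped, and p was 0.1 for each, the smallest the exact permutation test allows with 3 against 3 libraries (0.122 after adjustment). Col5a1 over Col1a1 differed less, at 0.0722 to 0.0731 in Vector against 0.0754 to 0.0839 in those labelled FTO (log2 change 0.13, SE 0.0448). Its groups did not overlap either, with the same exact permutation p of 0.1 (0.122 after adjustment).

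The promoters of collagen V genes are shown because chains of the same protein changed by different amounts. The RefSeq promoter table, on the rat assembly GRCr8, held 5 of the 10 genes (Col5a1, Col5a2, Col5a3, Col6a1 and Col6a3). The 250 bases before the start lie at chr9:55090152-55090401 (minus strand) for Col5a2 and at chr8:27625949-27626198 (minus strand) for Col5a3, each read 5′ to 3′ along the gene. Capitals mark matches on either strand to the CCAAT box, to the SMAD-binding motif CAGACA, to the GC box GGGCGG, to the TATA box TATAAA and to the purine run GGAGGG:
Col5a2: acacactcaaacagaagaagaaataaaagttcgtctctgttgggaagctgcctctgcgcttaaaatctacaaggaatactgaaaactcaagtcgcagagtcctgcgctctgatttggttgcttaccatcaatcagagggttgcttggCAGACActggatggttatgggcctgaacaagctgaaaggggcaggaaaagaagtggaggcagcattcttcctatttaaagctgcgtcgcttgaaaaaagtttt
Col5a3: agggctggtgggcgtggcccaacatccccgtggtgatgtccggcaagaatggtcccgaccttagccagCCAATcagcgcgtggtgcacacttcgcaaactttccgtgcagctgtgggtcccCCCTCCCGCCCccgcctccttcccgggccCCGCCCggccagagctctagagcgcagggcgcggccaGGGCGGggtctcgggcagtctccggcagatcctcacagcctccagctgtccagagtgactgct

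Col5a2 held a single match, CAGACA at 103 bases before the start. Col5a3 held a CCAAT at 182 bases, 3 matches to GGGCGG at 124, 100 and 63 bases, and a GGAGGG at 129 bases that overlaps the first of these. Col5a1, not printed, held GGGCGG at 127 bases. The share of G and C was 44.8% for Col5a2 and 68.8% for Col5a3. Of 33465 promoter windows in the table, 34% held CCAAT, 17.2% held CAGACA, 30.5% held GGGCGG, 12.9% held TATAAA and 33.6% held GGAGGG, so each motif is common. GGAGGG was added to the search after the sequences were seen, and a match is a run of letters, not a shown binding site. In the same annotation Col5a2 is adjacent to Col3a1 on chromosome 9 with 0 genes between them, and their log2 fold changes were -1.08 and -1.68.

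**Figure D2:**
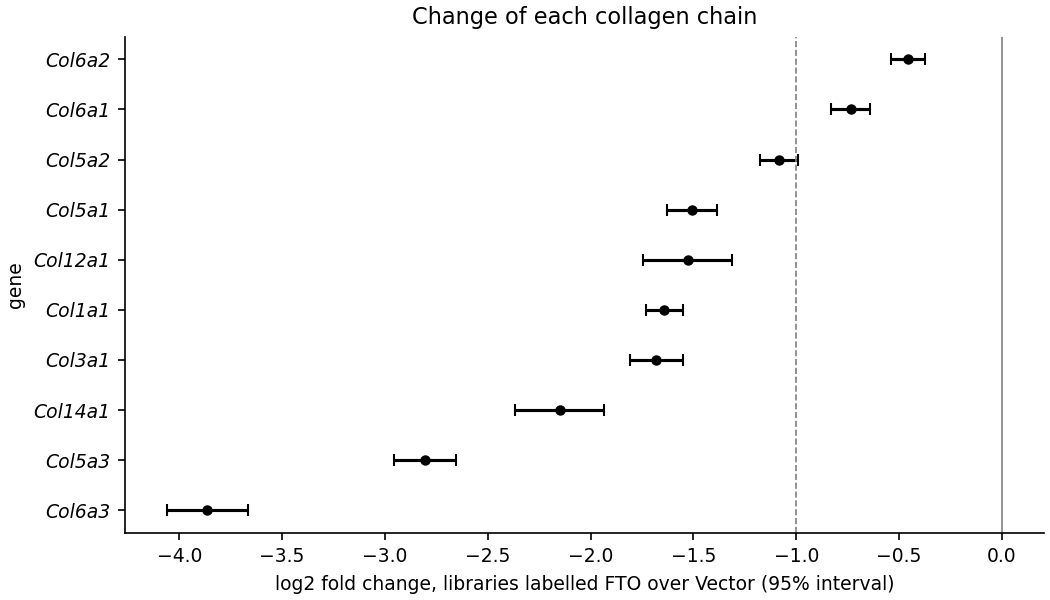
Log2 fold change of each gene (libraries labelled FTO over Vector) with its 95% interval from the edgeR test, ordered by size. The dashed line marks a log2 fold change of -1, to the right of which only Col6a2 (-0.46) and Col6a1 (-0.74) have their estimate, and Col6a3 (-3.86) lies farthest to the left.

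Collagen VI held both the smallest and the largest change of the set. Col6a1, the α1 chain, was at 2125, 2103 and 2124 CPM in Vector and at 1295, 1185 and 1332 CPM in the libraries labelled FTO. The means were 2117 ± 12.4 and 1270.5 ± 76.5 CPM, and the log2 fold change was -0.74 (SE 0.0444, adjusted p = 9.1e-10). The 95% interval was 1.56-fold to 1.78-fold lower.

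Col6a2, the α2 chain, had the smallest change. It was at 1993, 1987 and 1965 CPM in Vector and at 1460.5, 1379 and 1491 CPM in the libraries labelled FTO. The means of 1982 ± 14.5 and 1444 ± 58.0 CPM differed by a log2 fold change of -0.46 (SE 0.0396, adjusted p = 7.3e-08). Of the genes tested, 21% had a lower fold change than Col6a2.

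Col6a3, the α3 chain, was at 1385.5, 1459.5 and 1414 CPM in Vector and at 92.9, 81.6 and 117 CPM in the libraries labelled FTO. Behind these values were 18938 to 21753 counts in Vector and 1081 to 2087 counts in the other group. The means of 1419.7 ± 37.3 and 97.0 ± 17.8 CPM gave a log2 fold change of -3.86 (SE 0.0917, adjusted p = 9.8e-15), with a 95% interval of 12.7-fold to 16.7-fold lower. Among the genes tested, 0.58% had a lower fold change. By counts, Col6a3 moved from rank 56 or 57 in the Vector libraries to rank 2248, 2555 and 1737 in replicates 1, 2 and 3 labelled FTO.

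The balance of the 3 collagen VI transcripts therefore differed between the groups. Col6a3 over Col6a1 was 0.652, 0.694 and 0.666 in Vector and 0.0717, 0.0689 and 0.0875 in the libraries labelled FTO, which is 8.86-fold lower (log2 change -3.15, SE 0.110). Col6a3 over Col6a2 fell from 0.695, 0.735 and 0.719 to 0.0636, 0.0592 and 0.0782, or 10.8-fold. Col6a2 over Col6a1 rose by 0.28 on the log2 scale (SE 0.0193), from 0.925 to 0.945 in Vector to 1.12 to 1.16 in the libraries labelled FTO. The groups did not overlap in any of these 3 ratios, with exact permutation p = 0.1 and adjusted p = 0.122 for each.

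The promoters of Col6a1 and Col6a3, whose transcripts parted 8.86-fold, are printed in the same way, from chr20:11905440-11905689 (plus strand) and chr9:98886959-98887208 (minus strand) of GRCr8:
Col6a1: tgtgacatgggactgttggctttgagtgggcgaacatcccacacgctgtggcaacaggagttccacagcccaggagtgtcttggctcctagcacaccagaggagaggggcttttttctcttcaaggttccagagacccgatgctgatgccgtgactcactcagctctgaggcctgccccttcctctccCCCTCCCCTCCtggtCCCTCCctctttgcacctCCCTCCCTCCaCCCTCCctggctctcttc
Col6a3: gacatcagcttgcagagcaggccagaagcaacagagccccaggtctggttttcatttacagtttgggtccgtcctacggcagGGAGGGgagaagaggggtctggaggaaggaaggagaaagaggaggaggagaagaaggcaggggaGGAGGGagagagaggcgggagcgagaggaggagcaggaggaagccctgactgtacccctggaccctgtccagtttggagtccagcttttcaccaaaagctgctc

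The Col6a1 promoter held 6 matches to GGAGGG, all on the strand opposite to the gene and within 62 bases of the start, some overlapping. That of Col6a3 held 2 matches on the strand of the gene, 168 and 104 bases before the start. Neither held any of the other motifs, and the share of G and C was 60% and 58.4%. Col6a1 and Col6a2, the chains that fell least, lie side by side on chromosome 20 with 2 long non-coding RNA genes and 0 protein-coding genes between them.

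Col12a1 and Col14a1 encode the FACIT collagens XII and XIV. Col12a1 was at 1020.4, 1079 and 1038 CPM in Vector and at 350.2, 291 and 445 CPM in the libraries labelled FTO, or 1046 ± 30.2 against 362 ± 77.6. Its log2 fold change was -1.53 (SE 0.102, adjusted p = 3.0e-09). The spread among the libraries labelled FTO was wide, replicate 3 lying 0.61 above replicate 2 on the log2 scale.

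Col14a1 was at 1476, 1493 and 1488 CPM in Vector and at 355, 259 and 388 CPM in the libraries labelled FTO. Its mean fell from 1486 ± 8.57 to 334 ± 67.4 CPM, with -2.15 as the log2 fold change (SE 0.1004, adjusted p = 3.8e-11). Col14a1 over Col12a1 was 1.45, 1.38 and 1.43 in Vector and 1.01, 0.888 and 0.873 in the libraries labelled FTO, without overlap (log2 change -0.62, SE 0.0705). Col14a1 over Col1a1 was also lower, at 0.0573 to 0.0581 against 0.0330 to 0.0460. Col12a1 over Col1a1 was 0.0401, 0.0414 and 0.0400 against 0.0411, 0.0372 and 0.0526, and the groups overlapped (exact permutation p = 0.8). That last value depended on replicate 3 labelled FTO, as its log2 change of 0.09 became -0.052 without this library.

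Placed in order of change, Col6a2 was followed by Col6a1, Col5a2, Col5a1, Col12a1, Col1a1, Col3a1, Col14a1, Col5a3 and Col6a3. The 95% intervals of Col5a1, Col12a1, Col1a1 and Col3a1 overlapped, so their order is not settled. All other neighbours in this order had intervals that did not overlap. Within each group, most of the 10 genes shared the same lowest and highest library. Replicate 2 labelled FTO was the lowest of its group for 9 of 10 genes and replicate 3 was the highest for 8, while Col5a3 alone was highest in replicate 2. In Vector, replicate 1 was lowest for 8 and replicate 2 highest for 8. These orders were not counted over all genes, so they are not shown to be particular to the collagens. Among the libraries labelled FTO, Thbs1 and Itga1 were also lowest in replicate 2 and highest in replicate 3, whereas Dcn was highest in replicate 2. No gene spanned more than 0.15 on the log2 scale among the Vector libraries, whereas the widest span was 0.61 among those labelled FTO.

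**Figure D3:**
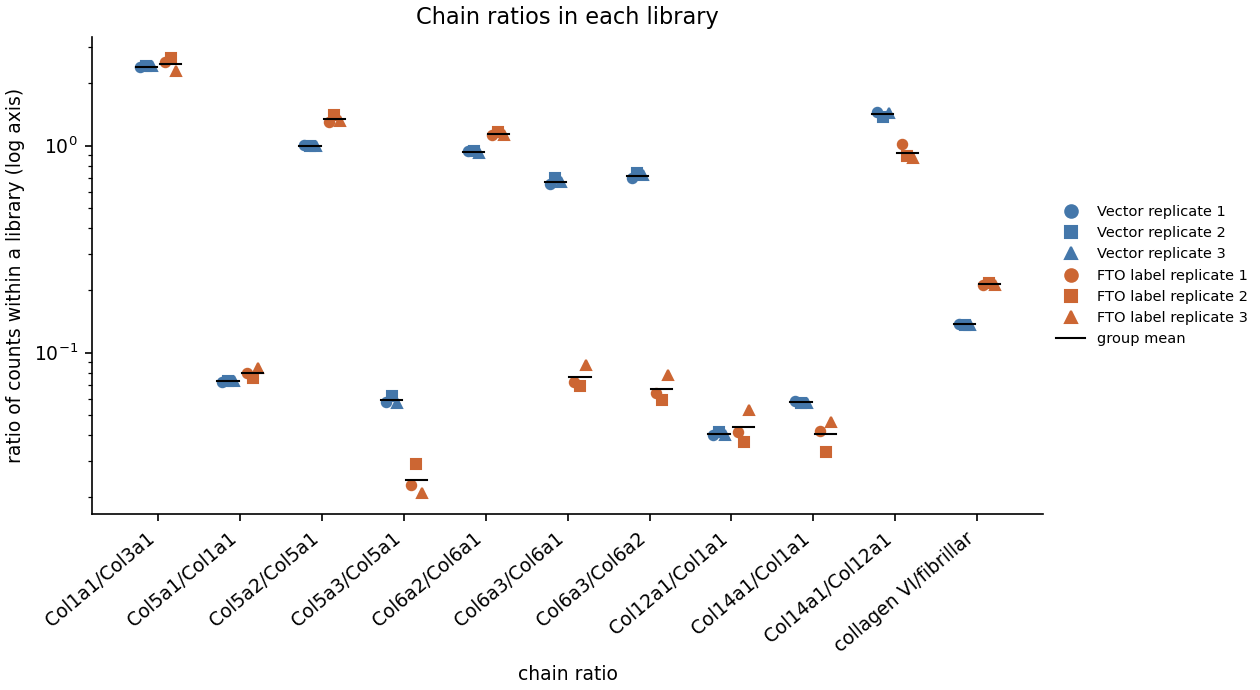
The 11 chain ratios in each library, on a log axis, as ratios of counts within the library, with the group mean as a line. Col1a1/Col3a1 and Col12a1/Col1a1 overlap between the groups, while Col6a3/Col6a1 (mean 0.671 against 0.0760) and Col6a3/Col6a2 (0.716 against 0.0670) lie far apart.

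As a share of all counts, the 10 genes took 4.76%, 4.88% and 4.83% in Vector and 1.70%, 1.55% and 1.76% in the libraries labelled FTO. The mean share fell from 4.83% ± 0.0642 to 1.67% ± 0.108, which is 2.89-fold (exact permutation p = 0.1, the smallest possible). Col1a1 alone went from 2.57% to 0.828% of all counts, and Col3a1 from 1.07% to 0.334%. The summed collagen V chains went from 0.385% to 0.156%, and Col12a1 with Col14a1 from 0.252% to 0.0697%. The summed collagen VI chains had a smaller drop of 1.95-fold, from 0.550% ± 0.00393 to 0.282% ± 0.0147.

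The make-up of the collagen counts shifted accordingly. Col1a1 held 53.3% ± 0.161 of the counts of the 10 genes in Vector and 49.6% ± 1.39 in the libraries labelled FTO, and Col3a1 held 22.1% and 20.0%. Col6a1 and Col6a2 together rose from 8.47% ± 0.125 to 16.3% ± 0.281 of these counts, and Col5a2 from 3.87% to 5.30%. Col6a3 went from 2.93% to 0.579%, Col14a1 from 3.07% to 1.99% and Col5a3 from 0.228% to 0.0960%. Col12a1 had a mean of 2.16% in both groups, but its libraries labelled FTO were spread, at 2.06%, 1.89% and 2.53%. These shares are of counts and not of molecules, since no transcript lengths were used. Collagen VI over the fibrillar chains was 0.138, 0.136 and 0.136 in Vector and 0.212, 0.216 and 0.213 in the libraries labelled FTO, 1.56-fold higher without overlap. The 43 collagen chains listed, which leave out Col1a2, together took 6.20% ± 0.0781 of all counts in Vector and 2.43% ± 0.146 in the libraries labelled FTO. Of the counts of these 43 chains, the 10 genes held 77.8% ± 0.0661 in Vector and 68.7% ± 0.387 in the libraries labelled FTO.

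**Figure D4:**
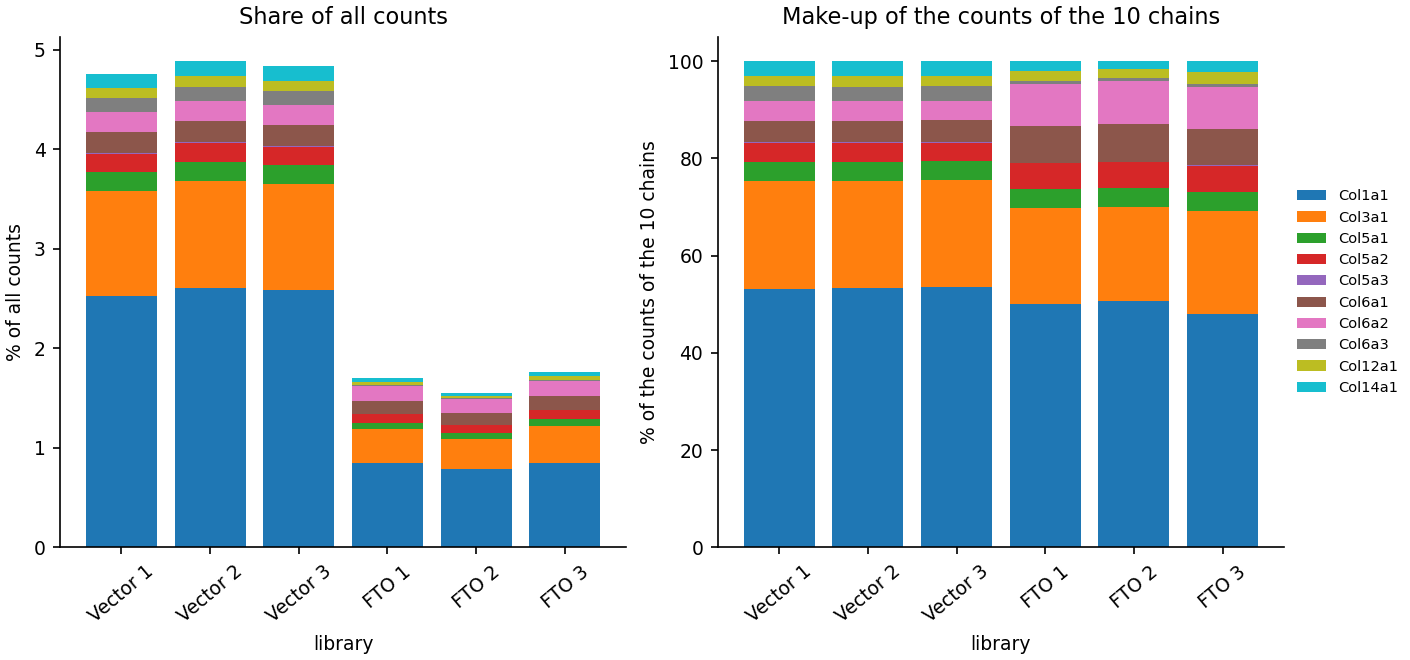
Left, stacked bars of the share of all counts taken by each collagen gene in each library, in percent. Right, the same counts as percent of the summed counts of the 10 genes. The bars fall from 4.76% to 4.88% in Vector to 1.55% to 1.76% in the libraries labelled FTO, and the band of Col6a3 narrows while those of Col6a1 and Col6a2 widen.

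The genes closest to a collagen gene in profile over the 6 libraries were found by the distance between centred log2 CPM values. For Col1a1 the nearest was Rai14 (distance 0.0499), an actin-associated protein, which fell from 619.8 ± 7.28 to 197 ± 10.8 CPM, followed by Actn4, an actin cross-linker (1339 ± 8.89 to 407 ± 13.9 CPM), and Tm4sf1. For Col6a3 they were Lmod1, a smooth muscle actin-filament protein (144 ± 4.06 to 8.89 ± 1.36 CPM, distance 0.148), the collagen XI chain Col11a1 (0.174) and the receptor Notch3 (0.234), with log2 fold changes of -4.0, -3.82 and -3.91. Atrn and Mprip lay nearest to Col5a2, Uhrf1bp1, Tenm3 and Fat4 to Col12a1, and Plce1 and Limch1 to Col14a1. With 2 groups far apart, a small distance mostly says that the fold change was alike.

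Other fibrillar and FACIT chains were mostly lower as well. The counts of these and the following lists stand beside 32.8% of all genes tested that were lower and 33.2% that were higher, with a median log2 fold change of 0.00. Of 5 other fibrillar chains, 4 were tested and 4 were lower, with a median log2 fold change of -2.09. Col11a1, which nucleates fibrils together with collagen V, fell from 679 ± 15.4 to 47.9 ± 7.15 CPM (log2 fold change -3.82), and Col27a1 from 14.6 ± 1.92 to 3.89 ± 0.667 CPM. Of 8 other FACIT chains, 5 were tested, 4 were lower and 1 was not called (median -0.98). Col9a3, a collagen IX chain, fell from 14.7 ± 0.828 to 0.669 ± 0.187 CPM and Col16a1 from 181 ± 3.45 to 144 ± 7.81 CPM. Among 4 further chains listed with collagen VI, a collagen XXVIII chain included, only Col6a6 had enough counts. It was not called (3.28 against 4.42 CPM).

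Network, membrane and other collagens gave 8 lower, 2 higher and 3 not called of 13 tested (median -0.50). Col4a5 of the basement membrane fell by 1.43 on the log2 scale and Col15a1 by 1.23. Col18a1, the source of endostatin, rose from 268 ± 3.29 to 548 ± 14.1 CPM (log2 fold change 1.03), and Col7a1, the anchoring fibril collagen, from 8.25 ± 0.892 to 32.7 ± 2.57 CPM (1.98).

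In procollagen synthesis and folding, 13 of 19 tested genes were lower, 3 were higher and 3 were not called, with a median of -0.26. Serpinh1, the collagen chaperone HSP47, fell from 2927 ± 30.9 to 1161 ± 16.6 CPM (log2 fold change -1.33) and P3h4 from 86.0 ± 3.02 to 44.6 ± 2.63 CPM. P4hb, the β subunit of prolyl 4-hydroxylase, rose from 1511 ± 7.71 to 3809 ± 82.5 CPM (1.33) and P4ha2, an α subunit, from 183 ± 1.99 to 309 ± 10.3 CPM. In cleavage and cross-linking, 5 were lower, 5 higher and 1 not called of 11 (median -0.06). Adamts2, which removes the N-propeptide of fibrillar procollagens, fell from 389 ± 11.1 to 144 ± 11.2 CPM, and Tll1, a C-proteinase, from 24.6 ± 1.07 to 7.82 ± 0.504 CPM. Lox, the lysyl oxidase that cross-links fibrils, rose from 765 ± 7.57 to 1970.4 ± 16.6 CPM (1.37) and Loxl3 by 0.59 on the log2 scale.

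Proteins that bind the fibrils included 8 that rose, 5 that fell and 1 not called of 14 tested (median 0.64). Dcn, or decorin, a small proteoglycan on the surface of collagen fibrils, rose from 47.0 ± 1.57 to 5610.5 ± 221 CPM (log2 fold change 6.90). Thbs2, which takes part in fibril assembly, rose from 73.6 ± 2.11 to 1149.8 ± 115 CPM (3.97). Tnc fell from 605 ± 4.56 to 92.6 ± 4.0 CPM (-2.71) and Thbs1 from 4049.6 ± 15.9 to 1227 ± 113 CPM (-1.72).

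Of 11 collagen receptors tested, 7 fell and 4 rose, with a median of -0.50. Itga11, the α chain of a collagen I receptor of fibroblasts, fell from 134 ± 4.20 to 6.04 ± 0.579 CPM (log2 fold change -4.46) and Itga1 from 327 ± 20.4 to 122 ± 34.4 CPM. The endocytic receptor Mrc2 rose from 241 ± 4.94 to 416 ± 19.3 CPM. Antxr2, which binds collagens IV and VI, rose from 38.4 ± 2.17 to 80.9 ± 5.85 CPM, whereas Antxr1 fell by 1.20 and Cspg4 by 1.41 on the log2 scale (the last pair was picked after the values were seen). Of 6 collagenases and gelatinases tested, 5 rose and 1 fell (median 1.02). Mmp9 rose from 0.934 ± 0.232 to 51.9 ± 14.2 CPM (5.78) and Ctsk, or cathepsin K, from 47.2 ± 1.33 to 102 ± 3.24 CPM.

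**Figure D5:**
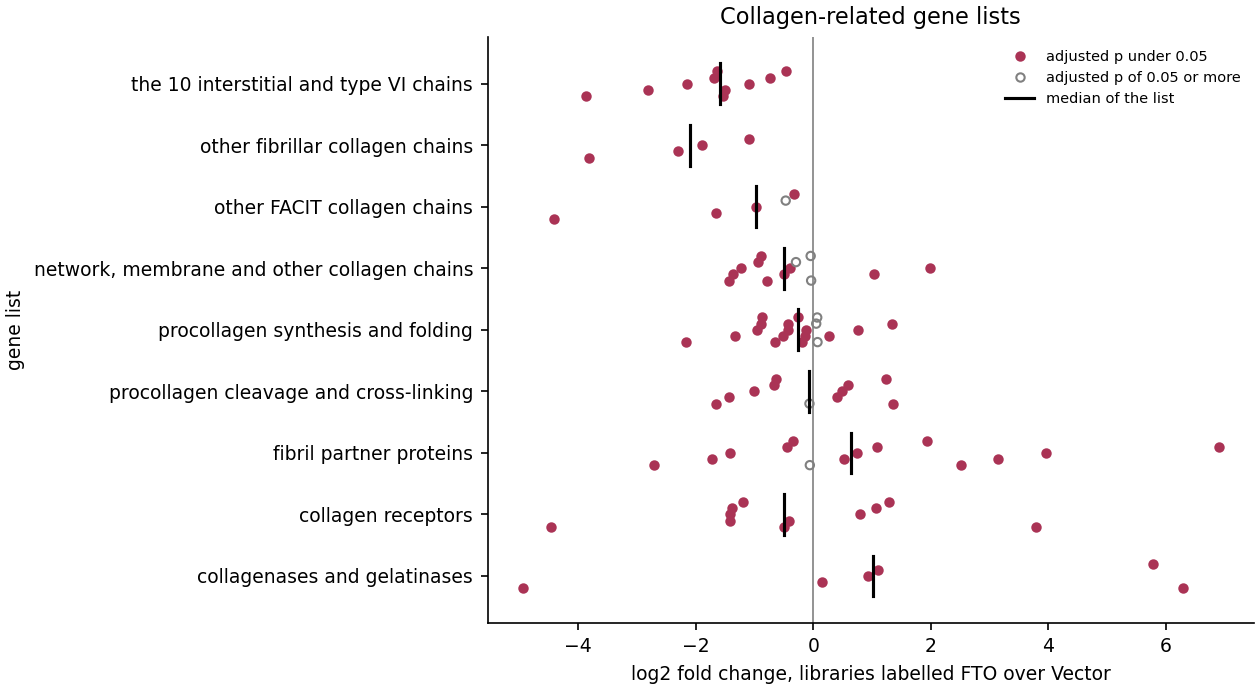
Log2 fold change (libraries labelled FTO over Vector) of each gene tested in the collagen-related lists, 1 row per list, with filled points for an adjusted p under 0.05 and a bar at the median. The 10 interstitial and type VI chains (median -1.59) and the other fibrillar chains (median -2.09) lie wholly to the left of 0, while fibril partner proteins (0.64) and collagenases (1.02) have their medians to the right.

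Markers of the cells in culture also moved with the groups, and their part in the collagen result was not tested. Of 5 myofibroblast markers, 4 fell and 1 rose, and their summed level went from 10217 to 10497 CPM in Vector to 2462 to 2679.8 CPM in the libraries labelled FTO. Acta2, smooth muscle actin, fell from 5716 to 485 CPM. In Vector, Acta2 and Tagln (2819 CPM) made up most of the sum. The 1 that rose was Postn, from 1262 to 1814 CPM. Of 8 fibroblast markers, 4 fell and 4 rose, and the sum went from 5087 to 5241 CPM to 9537 to 9903 CPM, of which Dcn is 5610.5 (mean). Vim fell from 3161 to 1250.3 CPM and Pdgfra rose from 173 to 976 CPM. The fibroblast markers were thus well above 0 in both groups.

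Markers of other cells had lower summed levels than the fibroblast markers. The lists differ in their genes and in length, and counts are not corrected for transcript length, so the sums do not rank cell types. Of 8 macrophage markers, 7 fell and 1 rose, with sums of 1487 to 1545.5 CPM in Vector and 189 to 218 CPM in the libraries labelled FTO, where C1qb (0.0858) and C1qc (0.109) were near 0. In those libraries Lyz2 (97.6 CPM) and Cd68 (51.0 CPM) stayed well above 0. The 1 that rose was Adgre1, from 6.81 to 31.7 CPM. Of 8 cardiomyocyte markers, 7 rose and 1 fell, with sums of 1513 to 1546 CPM and 2280.4 to 2324 CPM. For 6 endothelial markers, 5 were tested, 3 rose and 1 fell, and the sums were 112 to 116 and 102 to 110.2 CPM, Vwf being under 1 CPM in both groups. Kdr rose from 1.87 to 8.21 CPM and Flt1 fell from 94.3 to 63.5 CPM. For 5 mural cell markers, 4 were tested, 2 rose and 2 fell, with sums of 325 to 338 and 205 to 243 CPM, Rgs5 being under 1 CPM in both groups. Kcnj8 rose from 2.06 to 60.8 CPM and Notch3 fell from 226 to 14.9 CPM. In bulk RNA, fewer cells of a type and less RNA per cell cannot be told apart.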

How the data were processed

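RNA-seq of NRCFs was performed in 3 Vector libraries and 3 labelled FTO overexpression, grouped by the genotype labels. Values deposited by the authors were unnormalized read counts, 1 file per library with 1 row per gene symbol. The submitters' processing notes name Trimmomatic and the build rn6, while the aligner, counter, annotation and use of strand are not given in the sources used here. Each file listed 21857 symbols, of which 4691 had no count. Col1a2 is not analysed here and is in none of the lists, sums or shares.

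Counts were tested with the quasi-likelihood method of edgeR 4.0.16 (R 4.3.3), two-sided, with TMM scaling (factors 0.995 to 1.005), filterByExpr at a minimum count of 10 and Benjamini-Hochberg adjustment over 12941 genes. CPM values are TMM-normalized, given as mean ± SD of 3 libraries, and 95% intervals come from the edgeR standard error. Shares and log2 chain ratios were compared by exact permutation tests.

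The genes and lists were chosen with earlier results of these data known. Genes named from the collagen-related lists for their change had an adjusted p under 0.05, no overlap and a mean of at least 100 counts, up to 2 lowest and 2 highest per list. Col6a6, Antxr1, Cspg4 and the marker genes were named outside this rule, after their values were seen. For 5 of the collagen genes the 3 nearest profiles (log2 of CPM plus 0.5) are named, except 2 genes that are not reported here. Alternatives were DESeq2 1.42.0, limma-voom (limma 3.58.1), other scalings and filters, the replicate number as a block and leaving out each library. Intervals cover counting error and spread between these libraries only.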

Additional observations from a re-analysis of the deposited data

How the results depend on the processing

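Every one of the 10 genes was lower at an adjusted p under 0.05, and 8 were at least 2-fold lower, in all 14 alternatives, which were DESeq2, limma-voom, 3 other scalings (1 of them without the 10 genes), 2 other filters, the replicate block and each library left out. The highest adjusted p over these was 3.3e-06, for Col6a2. The fold changes moved most without replicate 2 or 3 labelled FTO, for Col12a1 from -1.71 to -1.39, for Col14a1 from -2.28 to -1.996 and for Col6a3 from -4.03 to -3.75 on the log2 scale. The median log2 fold change of all genes lay between -0.006 and 0.009 under the other scalings. The difference in the summed share ranged from -3.50 points, after 14 abundant other genes were removed, to -3.10 points. Of 253 recomputed values for 24 results, 252 were labelled the same. For fold changes this means the same direction and side of the adjusted p threshold, and for shares and ratios the same direction only. The 2 counts of genes did not change. The exception was the log2 change of Col12a1 over Col1a1, which was -0.052 without replicate 3 labelled FTO, with a range of -0.052 to 0.199 when a library was left out.

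With the replicate number as a block, 10 of 10 genes were lower and 8 were at least 2-fold lower, and 8399 genes were called in place of 8531. Correlations of deviations were 0.008, -0.123 and 0.068 for same-numbered libraries, and lay between -0.184 and 0.173 for the other pairs. With 3 libraries centred on the mean of their group, these values cannot tell whether the numbers pair the libraries. Ratios per kilobase of coding length were not run, since no lengths were used, so levels of different chains are not compared.

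With 3 libraries a group, exact permutation tests of shares and ratios could not go below p = 0.1. The counts of Col5a3 in the libraries labelled FTO, 223 to 267, were the lowest behind any value of the 10 genes.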
